A study of Mus musculus with 8 samples.

Results

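Runx1, Gfi1b and Gfi1 are 3 of the 19879 gene names counted in single bone marrow progenitor cells of Mof heterozygous and wild type mice, and were taken by name. RUNX1 is a DNA-binding factor that pairs with the subunit CBFB, is needed for the first blood stem cells to form in the mouse embryo, and acts later mainly in myeloid, megakaryocytic and lymphoid cells. GFI1 and GFI1B are closely related zinc finger repressors that recruit the histone demethylase KDM1A with its partner RCOR1. In the mouse, GFI1 is known for its part in stem cells, lymphocytes and granulocytes, GFI1B for its part in red cell and platelet formation, and each represses its own gene and that of the other. In the embryo, RUNX1 switches on both Gfi1 and Gfi1b when blood cells leave the endothelium.

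RNA was counted by CEL-Seq2, which gives every captured RNA a molecular identifier and reads its 3′ end, in cells sorted from bone marrow and flash frozen. Mof is the older name of Kat8, a histone acetyltransferase gene. There were 8 libraries in 4 groups of 2, namely het plate2 (Mof -/+), wild type plate2, het HSC (Mof -/+) and wild type HSC, where het stands for heterozygous and HSC for haematopoietic stem cell. The design text gives the HSC gate as LSK+CD34-Flt3-CD48-CD150+ and names 7 further gates, from erythroid and megakaryocyte to granulocyte-monocyte progenitors, without saying which plate2 wells hold which gate. The sources used here do not give the age, sex and strain of the mice, the nature of the Mof allele, or whether the libraries came from separate animals. The p-values therefore measure the spread between libraries, which may be technical.

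A well was kept when it held at least 1000 transcripts, which left 436 wells, 94 het and 110 wild type plate2 wells and 232 HSC wells, of which 96 are wild type and the others het. Kept plate2 libraries held 424490 to 733925 transcripts and HSC libraries 99253 to 244109. The median well held 8075 to 12515 transcripts in plate2 libraries and, in HSC libraries, 2921 and 2977 in the het group against 1600 and 1566.5 in the wild type group. Levels are CPM, the kept transcripts of a library or of a class of its wells scaled to a total of 1000000. Stem cell markers, a list of 16 genes, summed to 838 to 1541 CPM in plate2 libraries and 3830 to 5223 CPM in HSC libraries, with 14 to 16 of them detected in each HSC library. The title and the table name of each wild type plate2 library disagree on its number, so the values of wild type plate2 libraries 1 and 2 may be exchanged. Kat8 itself had 21 transcripts in the het and 14 in the wild type plate2 libraries and 3 in each HSC group, too few to check the genotype, and an antisense gene, Prss8, overlaps its 3′ end.

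All 3 genes lie on the minus strand of GRCm38, the build also called mm10. Gfi1b spans chr2:28609450-28621982, Runx1 spans chr16:92601466-92826149 and Gfi1 spans chr5:107716657-107726036, and none has another annotated gene over its 3′ end. The windows around their start sites are shown because the genes moved in different directions between classes of plate2 wells, and RUNX, GATA and GFI factors are known to act on this circuit. Each RefSeq window (GRCm38.p6) is 300 bases long, runs from upstream of the start to just past it, and is written 5′ to 3′ on the strand of the gene. Capitals mark matches to the RUNX motif TGTGGT, to the GATA motif, which is GATA with A or T before it and A or G after it, and to the GFI core AATCA, each on either strand.
Gfi1b, chr2:28621933-28622232: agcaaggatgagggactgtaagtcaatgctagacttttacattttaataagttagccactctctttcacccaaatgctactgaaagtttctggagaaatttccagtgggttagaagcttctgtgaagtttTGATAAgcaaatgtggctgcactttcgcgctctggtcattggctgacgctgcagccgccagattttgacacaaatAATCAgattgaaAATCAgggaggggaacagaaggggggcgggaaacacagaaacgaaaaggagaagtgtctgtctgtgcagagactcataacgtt
Runx1 distal start, chr16:92826025-92826324: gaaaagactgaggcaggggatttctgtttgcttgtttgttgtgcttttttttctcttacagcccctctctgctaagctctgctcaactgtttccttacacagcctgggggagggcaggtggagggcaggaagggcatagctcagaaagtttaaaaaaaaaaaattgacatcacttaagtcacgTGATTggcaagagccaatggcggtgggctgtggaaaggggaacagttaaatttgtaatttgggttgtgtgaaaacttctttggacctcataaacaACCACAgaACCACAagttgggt
Gfi1, chr5:107725756-107726055: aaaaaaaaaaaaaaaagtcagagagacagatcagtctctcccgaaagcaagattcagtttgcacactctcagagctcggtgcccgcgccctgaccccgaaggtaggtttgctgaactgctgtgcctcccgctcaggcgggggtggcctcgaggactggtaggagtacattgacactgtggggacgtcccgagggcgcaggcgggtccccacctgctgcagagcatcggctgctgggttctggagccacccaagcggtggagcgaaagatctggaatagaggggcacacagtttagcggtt

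The Gfi1b window held 1 GATA match and 2 GFI matches, which start at bases 206 and 218 counted from the 5′ end of the window. The distal Runx1 window held 2 RUNX matches, on the reverse strand at bases 279 and 287 near the start site, and 1 reverse GFI match farther upstream. A second, proximal Runx1 window (chr16:92697280-92697579) held 1 reverse GFI match. Neither the Gfi1 window above nor a second one (chr5:107724294-107724593) held these letters. Such matches are common, since 16.8% of 32851 mouse start-site windows of the same length held a RUNX match, 29.8% a GATA match and 37.02% a GFI match. The GFI core and the GATA motifs did not overlap in any of these windows.

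In plate2 libraries, the 3 genes separated sharply between wells with at least 3 transcripts of Car1 and the other wells. Car1 encodes carbonic anhydrase 1, an enzyme of red cells and their precursors. Gfi1b was several times as high in Car1 wells, Runx1 was lower there, and no Gfi1 transcript was counted in any Car1 well. The split used only the Car1 count, so the level of Car1 is no result. The 79 Car1 wells held 1282629 transcripts, with a median of 14047 per well, and the other wells of the 204 held 1183701, with a median of 8330. Of 6113 genes tested with edgeR's quasi-likelihood test on counts summed per class and library, with the library as a block, 27% differed at a Benjamini-Hochberg adjusted p under 0.05. Of the genes tested, 10.4% were higher and 16.6% lower in Car1 wells. Runx1 and Gfi1b were among them. Gfi1b passed the filter on low counts only through the Car1 wells, so its call could only be a rise, and its value without the filter is given below. Gfi1 entered this test only through the other wells, so its call could only be a fall and is not taken as a result. In such sums, fewer cells with a transcript and less RNA per cell cannot be told apart.

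Gfi1b stood at 187.4 and 123.4 CPM in the Car1 wells of the het libraries and at 95.3 and 82.6 CPM in those of the wild type libraries, against 22.9 and 32.1 CPM in the other wells of the het libraries and 27.6 and 20.6 CPM in those of the wild type libraries. The lowest Car1 class stood above the highest other class, so the classes did not overlap. For this split too, the share of all genes that separate in this way was not counted, so the lack of overlap is a description only. The mean was 122.2 ± 46.7 CPM in Car1 wells and 25.8 ± 5.10 CPM in other wells (SD, n = 4 libraries). The fitted log2 fold change was 2.02 ± 0.29 (SE; 95% interval 1.42 to 2.61), with an edgeR adjusted p of 2.15e-05. This p is limited by the filter on low counts, which Gfi1b passed only through the Car1 wells. With no such filter the log2 fold change was 2.11, with an edgeR adjusted p of 3.42e-10. Car1 wells held 84.2% of the 196 Gfi1b transcripts of plate2 libraries, and 52.01% of all transcripts.

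Runx1 stood at 65.2 and 47.8 CPM in the Car1 wells of the het libraries and at 68.5 and 77.1 CPM in those of the wild type libraries, against 122.2 and 167.4 CPM in the other wells of the het libraries and 150.7 and 168.9 CPM in those of the wild type libraries. Every library was lower in its Car1 wells, and here too the classes did not overlap. The mean was 64.7 ± 12.3 CPM in Car1 wells and 152.3 ± 21.7 CPM in other wells (SD, n = 4 libraries). Runx1 fell by 1.41 ± 0.22 on the log2 scale (SE; 95% interval -1.87 to -0.96), with an edgeR adjusted p of 5.79e-05. It remained present in Car1 wells, which held 80 of its 260 plate2 transcripts.

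Gfi1 had 0 transcripts in the Car1 wells of all 4 libraries, against 45.8 and 17.8 CPM in the other wells of the het libraries and 37.7 and 8.24 CPM in those of the wild type libraries. Its 34 plate2 transcripts all lay in other wells, in both genotypes. With 3 transcripts over all Car1 wells taken as the limit that a count of 0 allows, Gfi1 was at least 12.3-fold lower in Car1 wells. No p is given, since Gfi1 passed the filter on low counts through the other wells alone and could only fall. Of the 34 transcripts, 12 came from het plate2 library 1 and 15 from wild type plate2 library 1, and its level in other wells was 27.4 ± 17.4 CPM (SD, n = 4 libraries), a wide spread relative to its mean. Without wild type plate2 library 1 the bound was 7.64-fold and without het plate2 library 1 it was 7.27-fold. In both of these cases Gfi1 missed the filter on low counts and was not tested.

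**Figure D1:**
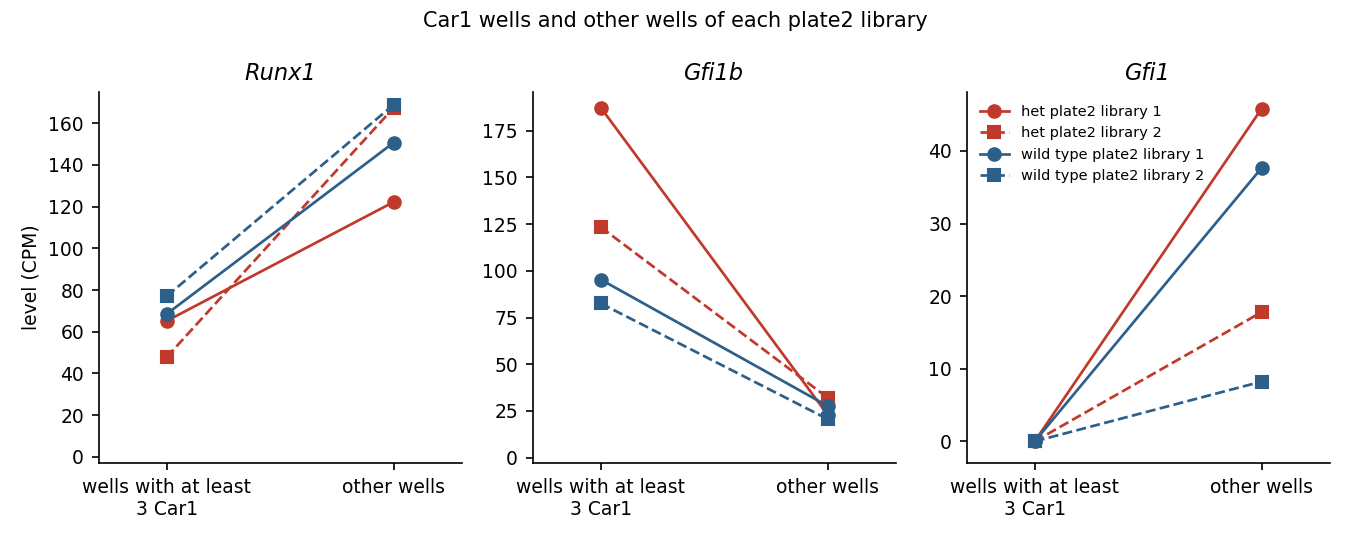
Level (CPM) of Runx1, Gfi1b and Gfi1 in wells with at least 3 Car1 transcripts and in the other wells of each plate2 library. Each line joins the 2 classes of 1 library, red for het and blue for wild type; Gfi1b is higher and Runx1 lower in the Car1 wells of all 4 libraries, and Gfi1 is at 0 there.

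Single wells showed the same order for Gfi1b and Gfi1, and a different one for Runx1. Gfi1b was detected in 46 of 79 Car1 wells, 58.2% (95% Clopper-Pearson interval 46.6% to 69.2%), and in 21 of the other wells, 16.8% (10.7% to 24.5%). Gfi1 was detected in 0 of 79 Car1 wells, where the same interval reaches up to 4.56%, and in 16 of the other wells, 12.8% (7.497% to 19.95%). Runx1 was detected in 51.9% of Car1 wells and 52.8% of other wells, and since Car1 wells were deeper this share does not give an order of levels. After thinning every well to 1000 transcripts, the shares were 13.9% and 3.20% for Gfi1b, 7.59% and 12% for Runx1, and 0% and 3.20% for Gfi1, in Car1 wells and other wells in each case. The thinned difference in shares had the same sign in 4 of 4 libraries for Gfi1b and for Runx1 and in 3 of 4 for Gfi1, where the last had 0 in both classes. With 4 libraries an exact sign-flip test cannot go below p = 0.125. These intervals and limits cover counting error only.

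With the plate2 libraries summed, the level of Gfi1b rose over the Car1 count. In wells with 0 Car1 transcripts, Gfi1b stood at 24.6 CPM. It stood at 36.3 CPM in the 22 wells with 1 to 2, on 6 transcripts in 3 wells. It stood at 102.7 CPM in the 46 wells with 3 to 29, and at 141.2 CPM in the 33 wells with 30 or more. Not every library rose at each step. Het plate2 library 1 had 0 in wells with 1 to 2, against 24.7 CPM in wells with 0. The upper 2 classes stood at 122.37 and 124.01 CPM in het plate2 library 2 and at 90.7 and 98.8 CPM in wild type plate2 library 1. They stood at 148.2 and 194.1 CPM in het plate2 library 1 and at 53.9 and 102.4 CPM in wild type plate2 library 2. Runx1 stood at 157.1, 120.9, 90.8 and 48.6 CPM over the same classes, each lower than the one before with the genotypes summed. In wells with 1 to 2 Car1 transcripts the genotypes split, since Runx1 stood there at 183.7 CPM in het wells, above the 140.9 CPM of het wells with 0, and at 85.3 CPM in wild type wells, below the 101.1 CPM of wild type wells with 3 to 29, on 11 and 9 transcripts. Gfi1 stood at 31.4 and 12.1 CPM in the first 2 classes, the second on 2 transcripts, and was at 0 in both classes of Car1 wells. The median well held 8719, 3773.5, 6996.5 and 24886 transcripts over these classes, and its part in the gradient was not tested beyond the thinned shares above.

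**Figure D2:**
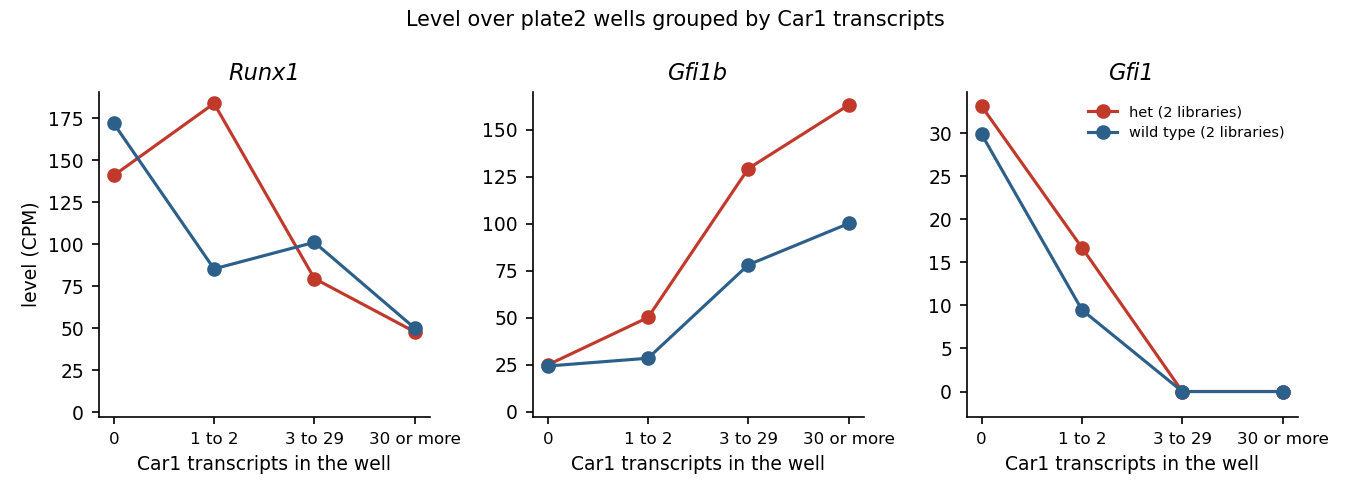
CPM of each gene (vertical axis) over plate2 wells grouped by their number of Car1 transcripts (horizontal axis), for het (red) and wild type (blue) libraries summed. Gfi1b reaches 163.1 CPM in het and 100.1 CPM in wild type wells with 30 or more Car1 transcripts, Runx1 stands at 47.9 and 50.04 CPM there, and Gfi1 is at 0 in both upper classes.

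Few wells held both Gfi1b and Gfi1, each of which was counted in a minority of wells. Of 204 plate2 wells, 67 held Gfi1b, 16 held Gfi1 and 1 held both, a het well with 1 transcript of each and no Car1. In HSC libraries, 15 of 232 wells held Gfi1b, 13 held Gfi1 and 2 held both. In plate2 libraries Runx1 was counted in 42 of the 67 Gfi1b wells and 11 of the 16 Gfi1 wells, against 52.5% of all wells. In HSC libraries it was counted in 2 of the 15 Gfi1b wells and 3 of the 13 Gfi1 wells, against 39 of all 232 wells. Wells with Runx1 were deeper, with a median of 13116 transcripts against 4470 in plate2 wells without it, so joint detection moves with depth.

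**Figure D3:**
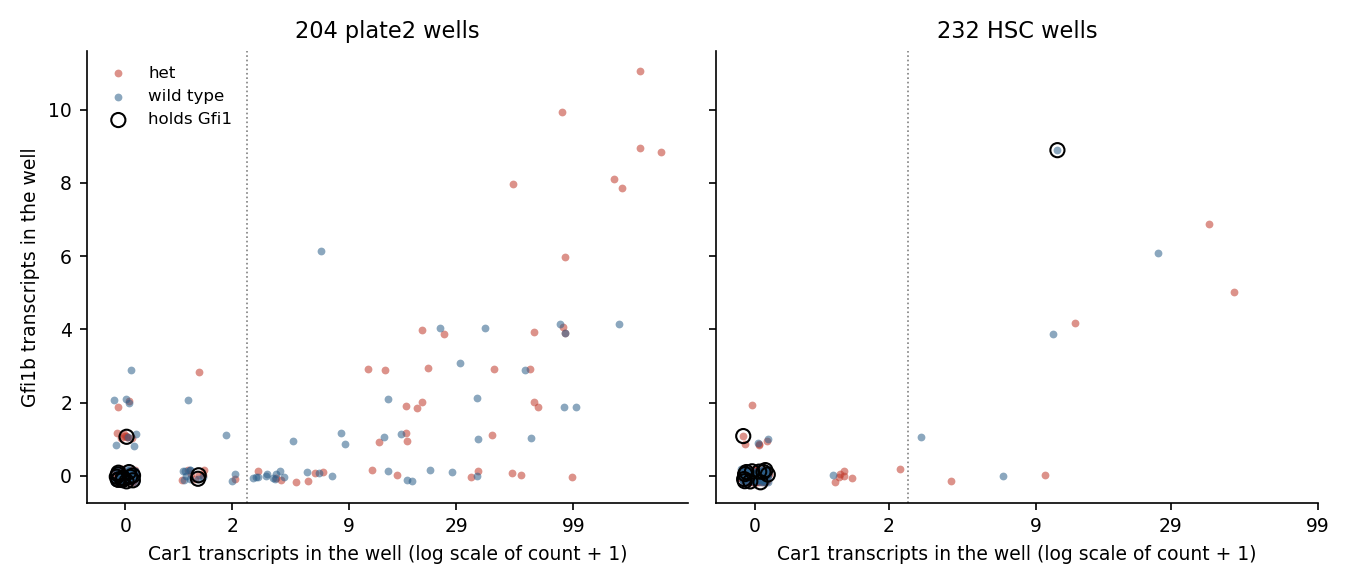
Gfi1b transcripts (vertical axis) against Car1 transcripts (horizontal axis, log scale of count + 1) in each kept well of plate2 and HSC libraries, with a small random shift so that points do not hide each other. Red points are het and blue points wild type wells, black rings mark wells with Gfi1, and the dotted line separates wells with at least 3 Car1 transcripts; 1 ringed well, in the HSC panel, lies to its right.

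The Gfi1 wells of plate2 libraries were of more than 1 kind. The most Gfi1 in a well was 8 transcripts, in het plate2 library 1, beside 1294 transcripts of a list of 10 granulocyte-monocyte progenitor markers that holds Mpo and Elane. The next was 7 transcripts, in wild type plate2 library 1, beside 442 marker transcripts. Wells with at least 10 such marker transcripts, a limit set after the values were seen, numbered 26 and held 25 of the 34 Gfi1 transcripts, at 57.7 CPM, with Runx1 at 168.5 CPM and 2 Gfi1b transcripts. The other 9 Gfi1 transcripts lay 1 to a well, in wells with 0 to 4 marker transcripts. In HSC libraries, the 13 Gfi1 wells held 1 to 4 Gfi1 transcripts and at most 3 marker transcripts.

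Partners of the members were set against the 27% of all genes that passed. Among 14 partners of RUNX1 and members of the blood factor complex, 4 rose and 6 fell in Car1 wells, with a median log2 fold change of -0.49, against -0.0035 over all genes tested. Gata1, the main erythroid GATA factor, averaged 196 ± 24.3 CPM in Car1 wells and 22.1 ± 9.77 CPM in other wells, and rose by 2.91 ± 0.27 on the log2 scale. Ldb1, Tal1 and Tcf3, which bind DNA with GATA1 in erythroid cells, rose by 1.38 ± 0.19, 0.82 ± 0.18 and 1.33 ± 0.33. The ETS factor genes Fli1, Erg and Spi1 (PU.1) fell, with log2 fold changes of -2.95 ± 0.33, -2.56 ± 0.28 and -4.85 ± 0.68, and Runx2, a second gene of the RUNX family, fell by 2.77 ± 0.35. Spi1 held 2 transcripts over all Car1 wells and 58 over the other wells. Fli1, Erg, Spi1 and Runx2 passed the filter on low counts only because of the other wells and could only fall. Gata1 and Tcf3 passed it only because of the Car1 wells and could only rise. Lmo2 and Lyl1 fell by 0.90 ± 0.17 and 0.98 ± 0.27. With DESeq2, Tcf3 and Lyl1 missed the threshold, at adjusted p values of 0.0737 and 0.149, and without wild type plate2 library 1 Lyl1 had an edgeR adjusted p of 0.0651. Cbfb, the partner subunit, averaged 92.3 ± 15.1 CPM in Car1 wells and 120 ± 25.5 CPM in other wells, with a log2 fold change of -0.52 ± 0.21 and an edgeR adjusted p of 0.0690. Runx3 had a log2 fold change of -0.46 ± 0.24, Gata2 of 0.14 ± 0.20 and Cbfa2t3 of 0.46 ± 0.19, none of which passed.

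Of 15 corepressors of GFI1 and GFI1B, 12 were tested, of which 2 rose and 1 fell, a share near that of all genes, with a median of 0.09. Kdm1a, the demethylase itself, averaged 64.5 ± 11.3 CPM in Car1 wells and 51.8 ± 16.3 CPM in other wells and did not pass, with a log2 fold change of 0.22 ± 0.28. Rcor1 rose by 0.78 ± 0.23 and Ctbp1 by 0.58 ± 0.19. Both rises missed the threshold with DESeq2, at an adjusted p of 0.120 for Rcor1 and 0.167 for Ctbp1. Without wild type plate2 library 2, Rcor1 had an adjusted p of 0.0635. Without wild type plate2 library 1 or het plate2 library 1, Ctbp1 had adjusted p values of 0.147 and 0.187. Phf21a, a histone reader of the KDM1A complex, fell by 2.09 ± 0.32. It passed the filter on low counts only through the other wells and could only fall.

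Of 16 genes reported as repressed by GFI1 or GFI1B, 7 were tested, and 6 fell and 1 rose, with a median of -2.86. Those that fell include Irf8 at -4.73 ± 0.31, a factor of monocyte fate, and Meis1 and Hoxa9 at -2.86 ± 0.31 and -2.57 ± 0.33, factors of stem and early progenitor cells. Tgfbr3, a coreceptor of the TGF beta family, rose by 1.29 ± 0.29. Of 13 reported targets of RUNX1, 10 were tested and 9 fell, with a median of -4.78. Among them were the granule protein genes Mpo (-7.08 ± 0.29), Elane (-7.76 ± 0.37) and Ctsg (-6.29 ± 0.29). Elane and Ctsg held 5 and 12 transcripts over all Car1 wells and entered the test through the other wells, where they held 823 and 710. Nfe2, which acts in red cells and platelets, had a log2 fold change of -0.46 ± 0.25 and did not pass. Mpo, Irf8, Meis1 and Hoxa9 likewise passed the filter on low counts only through the other wells, and Tgfbr3 only through the Car1 wells. Each of them could move only in the direction found, so the tallies of these lists are descriptions. The values are those of edgeR's fit.

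Markers of cell types moved with the same split, and their part in the differences of the 3 members was not tested. Of 15 erythroid progenitor markers, 12 rose and 0 fell, with a median of 2.54, Aqp1, Ermap and Car2 at 3.40 ± 0.30, 3.67 ± 0.36 and 1.75 ± 0.22. The 3 globin genes of the list, Hbb-bs, Hba-a1 and Hbb-bt, did not pass. Stem cell markers fell in 11 of 12 tested, with Hlf at -4.75 ± 0.35, granulocyte-monocyte progenitor markers in 9 of 9, mature neutrophil markers in 8 of 8 and megakaryocyte markers in 3 of 3. Their medians were -4.20, -6.73, -6.98 and -4.35. Of the tested markers, 2 of stem cells, 2 of granulocyte-monocyte progenitors and 3 of mature neutrophils were at 0 in Car1 wells. Such genes passed the filter on low counts only through the other wells and could only fall. The same held for Hlf, Cd34, Flt3 and Dntt, while Ermap passed it only through the Car1 wells and could only rise. The tallies of these lists are therefore descriptions. With DESeq2, 3 of the 8 mature neutrophil markers passed, and without wild type plate2 library 1 or 2 only 2 of them were tested, both of which fell. Without wild type plate2 library 1, 8 of the erythroid markers rose. With genes at 0 in Car1 wells set to their bound, the first 3 of the medians above became -3.95, -5.31 and -6.31, and no megakaryocyte marker was at 0. The granulocyte-monocyte list summed to 11.01 to 83.1 CPM in the Car1 wells of a library and 317 to 9592 CPM in its other wells. Several of these lists share genes with each other and with the RUNX1 targets. Of 3 markers that the HSC gate excludes, Cd34 and Flt3 fell by 5.35 ± 0.40 and 5.26 ± 0.81, and Cd48 did not pass. Of 8 lymphoid markers 1 was tested, Dntt, which fell by 4.88 but did not pass at a Car1 threshold of 1, with a log2 fold change of -1.74 and an edgeR adjusted p of 0.194, and none of 5 mast cell and basophil markers passed the filter on low counts.

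Between the genotypes, none of the 3 genes passed in plate2 libraries, where 0.553% of 6690 genes did. Gfi1b had 119.04 and 85.6 CPM in the het libraries, against 58.6 and 47.1 CPM in the wild type libraries. Both het values were above both wild type values. Here and elsewhere, the share of all genes that separate in this way was not counted, so a lack of overlap is a description only. The log2 fold change was 0.79 ± 0.40 (95% interval -0.04 to 1.62), with an edgeR adjusted p of 0.969. Runx1 had 88.9 and 97.4 CPM in het libraries, against 113.1 and 129.6 CPM in wild type libraries, again without overlap, and its log2 fold change was -0.50 ± 0.29 (-1.11 to 0.10) with an adjusted p of 0.997. Gfi1 had 12 and 5 transcripts in het libraries and 15 and 2 in wild type libraries, which overlap, and a log2 fold change of -0.23 ± 0.68 (-1.65 to 1.195). Car1 wells gave 58.5% of the transcripts of het and 44.7% of those of wild type plate2 libraries. The part of this share in the differences was not tested, and the values within each class follow.

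Within Car1 wells, where 0.0818% of genes passed between genotypes, Gfi1b had a log2 fold change of 0.70 ± 0.31 (95% interval 0.06 to 1.35). Its unadjusted p was 0.0339 and its edgeR adjusted p 0.828, so it did not pass over all genes. This fit had no library term, so the Car1 wells and other wells of a library were taken as independent. The per-library values given above, 187.4 and 123.4 CPM in het against 95.3 and 82.6 CPM in wild type Car1 wells, did not overlap. In wells with 3 to 29 Car1 transcripts Gfi1b stood at 129.3 CPM in het and 78.1 CPM in wild type libraries, and in wells with 30 or more at 163.1 CPM and 100.1 CPM. Het Car1 wells also held more transcripts, with a median of 17661 against 11717, and their 15 erythroid markers summed to 3770 and 3715 CPM, against 11126 and 6770 CPM in wild type Car1 wells. In each library the 3 wells with the most of these markers held 35.3% and 44.7% of them in het and 80.03% and 81.95% in wild type libraries, and without these wells the sums were 3379 and 3004 CPM in het and 3269 and 2277 CPM in wild type libraries. The part of these in the difference of Gfi1b was not tested. Runx1 in Car1 wells had a log2 fold change of -0.42 ± 0.34 (-1.14 to 0.30), and Gfi1 had no transcript in either genotype.

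Within the other plate2 wells, where 0.671% of genes passed, Gfi1b had 22.9 and 32.1 CPM in het and 27.6 and 20.6 CPM in wild type libraries, with a log2 fold change of -0.04 ± 0.51 (95% interval -1.12 to 1.03). Runx1 had a log2 fold change of -0.32 ± 0.27 and Gfi1 of 0.13 ± 0.79, and neither passed. The effect of the Car1 split was not shown to differ between genotypes for any member that could be tested. The difference of the split's effect, het minus wild type, was 0.73 ± 0.63 for Gfi1b with an edgeR adjusted p of 0.940, and -0.10 ± 0.46 for Runx1 with an adjusted p of 1, where 0.327% of genes passed. In the other plate2 wells, mature neutrophil markers summed to 691 and 39.2 CPM in het and 4821 and 3525 CPM in wild type libraries. The 3 wells with the most of them held 95.6% and 100% of these transcripts in the het and 98.8% and 98.6% in the wild type libraries, and without these wells the sums were 36.7 and 0 CPM in het and 59.5 and 51.4 CPM in wild type libraries. Erythroid progenitor markers summed to 680 and 3066 CPM in the other wells of het and 540 and 910 CPM in those of wild type libraries. Of the 861 such transcripts of het plate2 library 2, 700 lay in its 5 wells with 1 to 2 Car1 transcripts. The part of these markers in the values of the members was not tested.

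In HSC libraries, where 0.0149% of 6690 genes passed between genotypes, the members did not pass either. Gfi1b had 86.03 and 9.95 CPM in het libraries, against 100.8 and 116.5 CPM in wild type libraries, on 21, 2, 10 and 12 transcripts. The wide gap lies between the 2 het libraries, and both were below the wild type libraries. The log2 fold change was -1.14 ± 0.60 (95% interval -2.38 to 0.10) with an edgeR adjusted p of 0.502. It was -3.43 without het HSC library 1, with an adjusted p of 0.0513, and -0.33 without het HSC library 2, with an adjusted p of 0.916. Runx1 had 69.6 and 104.5 CPM in het and 80.6 and 58.2 CPM in wild type libraries, and Gfi1 24.6 and 34.8 CPM in het and 40.3 and 38.8 CPM in wild type libraries. Runx1 overlapped between the genotypes and Gfi1 did not, with log2 fold changes of 0.27 ± 0.48 and -0.47 ± 0.85. The Gfi1 levels rest on 6 and 7 transcripts in the het and 4 and 4 in the wild type libraries, so few that its lack of overlap is a description only.

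The Gfi1b of HSC libraries lay mostly in a few wells that also held Car1. Of 232 kept HSC wells, 10 had at least 3 Car1 transcripts, and these held 36 of the 45 Gfi1b transcripts, at 347 CPM against 16.6 CPM in the other HSC wells. The same 10 wells held 0 of the 52 Runx1 transcripts and 1 of the 21 Gfi1 transcripts. They numbered 4 and 1 in the het libraries and 2 and 3 in the wild type libraries, and the 1 Car1 well of het HSC library 2 held no Gfi1b. Their median was 10478.5 transcripts, against 2218 in the other HSC wells. In wild type HSC library 1 a single well held 9 of the 10 Gfi1b transcripts. The HSC level of Gfi1b in a library thus rested on 0 to 3 Car1 wells with Gfi1b, and with the Car1 wells left out Gfi1b did not pass the filter on low counts.

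Over both sets, with 4 libraries a genotype and the plate set as a term, 0.135% of genes passed and no member did. The log2 fold changes, het over wild type, were -0.28 ± 0.27 for Runx1, 0.17 ± 0.39 for Gfi1b and -0.32 ± 0.53 for Gfi1, with edgeR adjusted p values of 0.972 for Runx1 and 0.997 for the other two. The genotype effect in plate2 minus that in HSC libraries was 1.93 ± 0.72 for Gfi1b (95% interval 0.44 to 3.43), with an unadjusted p of 0.0138 and an adjusted p of 0.444. It was -0.77 ± 0.56 for Runx1 and 0.24 ± 1.11 for Gfi1. No gene passed in that test by edgeR or DESeq2 (0%), and 599 of 6690 had an unadjusted p under 0.05 by edgeR and 315 by DESeq2. Without het HSC library 1 the Gfi1b value was 4.23 with an adjusted p of 0.0300, a fit in which the lone het HSC library, with 2 Gfi1b transcripts, is assumed to vary like the other groups.

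Of the pathway lists, no partner, corepressor or reported GFI target passed between genotypes in HSC libraries, in plate2 libraries or over both sets. Among reported RUNX1 targets, Pf4, a platelet chemokine gene, rose in het plate2 libraries by 2.58 ± 0.53, with an edgeR adjusted p of 0.0227, and over both sets by 2.43 ± 0.41, with an adjusted p of 0.0107. The plate2 call was lost without any 1 of the 4 libraries, at values of 1.71 to 3.63 and adjusted p values of 0.0834 to 0.521, and the call over both sets was lost without het plate2 library 1 or het HSC library 1, at adjusted p values of 0.112 and 0.0502. Within Car1 wells the only list members that passed between genotypes were the globin genes Hbb-bt, Hbb-bs and Hba-a1, which fell, with log2 fold changes of -6.52 ± 0.92, -5.82 ± 0.88 and -6.19 ± 1.10, while in DESeq2 their adjusted p values were 0.175, 1 and 1. They were also lost at a Car1 threshold of 1, at edgeR adjusted p values of 0.480, 0.0657 and 0.276. In each library 3 Car1 wells held most of the transcripts of these globin genes, 2 of 2 and 32 of 41 in the het and 99.5% of 1956 and 307 of 307 in the wild type libraries. Globin genes have near-identical copies, between which the counting could split reads. Among marker lists, mature neutrophil markers fell in 7 of 9 tested in het plate2 libraries. The number was 0 without het plate2 library 1, 1 without het plate2 library 2, 3 without either wild type library, 0 without wells of mature neutrophil transcripts, where only 1 was tested, and 1 of the 7 with an adjusted p in DESeq2. No granulocyte-monocyte progenitor, stem cell or megakaryocyte marker other than Pf4 passed there.

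**Figure D4:**
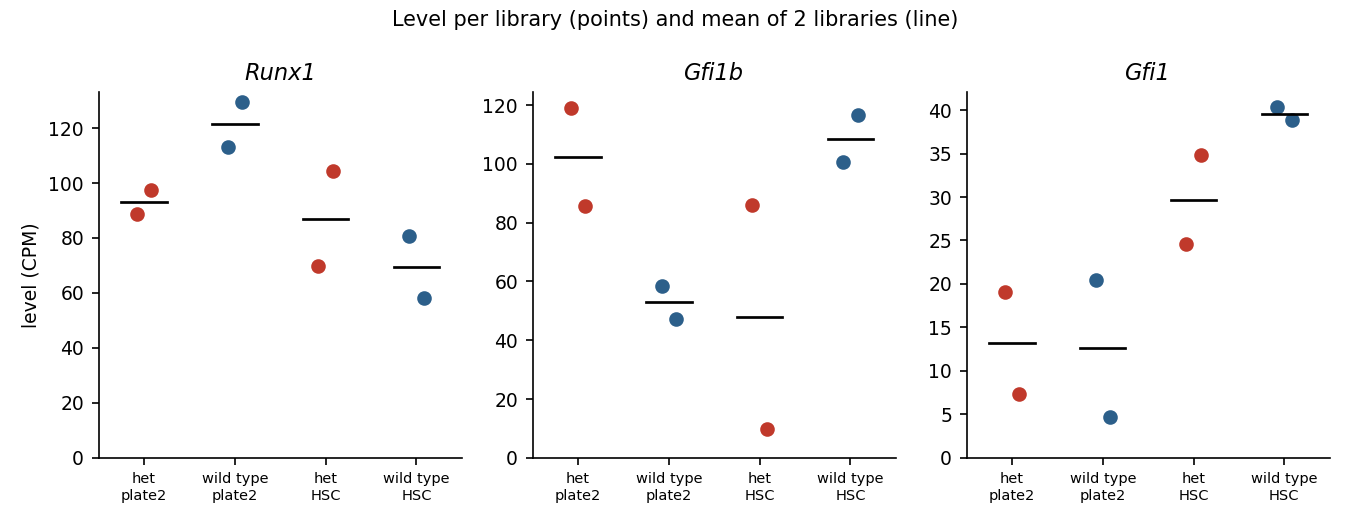
CPM of Runx1, Gfi1b and Gfi1 in each of the 8 libraries (points; red het, blue wild type), with the mean of the 2 libraries of a group as a line. Gfi1b is higher in both het plate2 libraries than in the wild type ones, and het HSC library 2 stands apart at 9.95 CPM; Gfi1 lies between 24.6 and 40.3 CPM in HSC libraries and between 4.71 and 20.4 CPM in plate2 libraries.

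Between the plate sets, levels were compared within each genotype, and no member passed, while 22.3% of genes passed in het and 17.8% in wild type libraries. Runx1 averaged 93.1 ± 5.999 CPM in het plate2 and 87.1 ± 24.6 CPM in het HSC libraries, and 121.3 ± 11.7 CPM in wild type plate2 and 69.4 ± 15.8 CPM in wild type HSC libraries (SD, n = 2 each). The log2 fold change, plate2 over HSC, was 0.29 ± 0.34 in het and 1.06 ± 0.43 in wild type libraries, with edgeR adjusted p values of 0.585 and 0.0885. Gfi1b averaged 102.3 ± 23.7 CPM in het plate2 and 47.99 ± 53.8 CPM in het HSC libraries, and 52.9 ± 8.11 CPM in wild type plate2 and 108.6 ± 11.1 CPM in wild type HSC libraries. Its log2 fold changes were 1.18 ± 0.47 and -0.76 ± 0.53, with adjusted p values of 0.0801 and 0.341. Without het HSC library 1 the first became 3.53, with an adjusted p of 0.00220. Gfi1 averaged 13.2 ± 8.25 CPM in het plate2 and 29.7 ± 7.24 CPM in het HSC libraries, and 12.6 ± 11.1 CPM in wild type plate2 and 39.6 ± 1.04 CPM in wild type HSC libraries. All 4 plate2 libraries were below all 4 HSC libraries, and the log2 fold changes were -0.98 ± 0.73 and -1.22 ± 0.84.

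Across all 8 libraries, the order of the mean levels was Runx1 at 92.7 ± 23.3 CPM, Gfi1b at 77.9 ± 37.4 CPM and Gfi1 at 23.8 ± 13.6 CPM (SD, n = 8). CEL-Seq2 counts 1 tag per transcript from its 3′ end, so these levels are not divided by gene length, and capture may differ between genes. Runx1 and Gfi1b do not differ beyond their spread, and Gfi1 lies below both in their means, though het HSC library 2 has less Gfi1b than Gfi1.

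**Figure D5:**
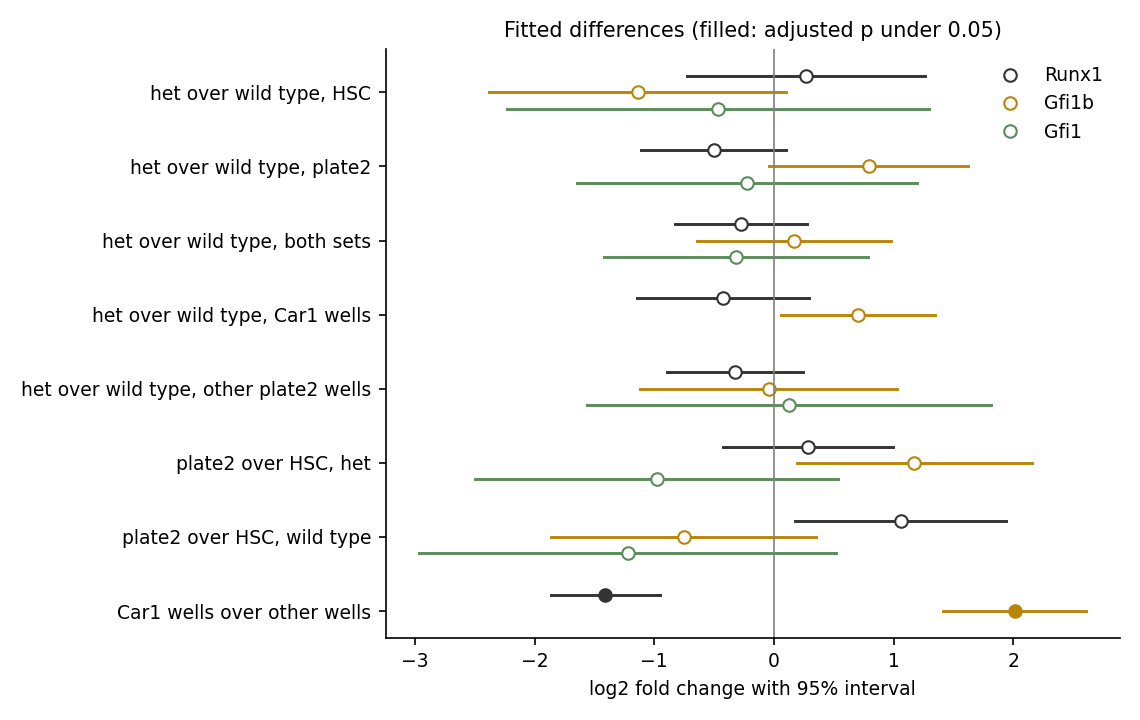
Fitted log2 fold changes (points) with 95% intervals (lines) for each gene in 8 comparisons, where the first group named is divided by the second and filled points have an edgeR adjusted p under 0.05. The filled points are those of Runx1 at -1.41 and Gfi1b at 2.02 for Car1 wells over other wells; Gfi1, at 0 in Car1 wells, has no point in the 2 comparisons that need a level there.

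The share of wells in which each gene was counted was compared between genotypes by an exact two-sided permutation of genotype within plate set, with 36 arrangements and a smallest possible p of 0.0556. Runx1 was counted in 56.3% and 67.4% of wells in het plate2 libraries, against 44.6% and 44.4% in the wild type plate2 libraries, and in 17.6% and 23.5% in het HSC libraries against 12% and 10.9% in wild type HSC libraries. Both het libraries were above both wild type libraries in each set, and p was 0.0556, with an adjusted value of 0.167 over the 3 genes. After thinning to 1000 transcripts, the mean shares were 9.78% in het and 7.97% in wild type libraries, with p = 0.722 in the exact permutation test, and the unthinned order goes against the CPM in plate2 libraries. Gfi1b was counted in 23.5% of het and 16.2% of wild type wells as the mean over libraries (p = 0.167, exact permutation test), and Gfi1 in 7.20% and 6.01% (p = 0.500, exact permutation test).

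The genes whose levels ran most like each member were sought over 12 pools, the 4 HSC libraries and the 2 well classes of each plate2 library, among 3172 genes with a mean of at least 50 CPM. The measure was Pearson's r of log2(CPM + 10), given as a description, since the pools share libraries and the plate2 pools share the Car1 split. For Runx1 these were Ms4a6c (r = 0.93), Rps6ka1 (0.89), Dock8 (0.87), Cbl (0.85) and Tmsb4x (0.85). For Gfi1b they were Ces2g (0.93), Fkbp4 (0.92), Gata1 (0.92), C1qbp (0.91) and Pfas (0.91). For Gfi1 they were Sh2d5 (0.96), Foxp1 (0.96), B4galt6 (0.94), Pgam1 (0.93) and Cd53 (0.93), on the low counts of Gfi1.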

How the data were processed

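The deposited tables hold, per the file headers and values, 192 barcodes per library with 1 estimated count per gene, in which the authors corrected the number of distinct molecular identifiers for collisions among 4096. These expected counts are not scaled for depth. Per the submitters' processing notes, BWA 0.6.2-r126 and mm10 were used, while the sources used here give neither the counting tool nor the annotation. The members and gene lists were chosen with earlier results of these data known.

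Values were rounded, 70 spike-in rows were left out, and 0 rows named no gene. Of the 436 kept wells, 19 lay outside the 96 barcodes of their own library, and barcodes outside them held 2.29% to 13.6% of the transcripts of a library. Wells came from a cell sort, so no doublet caller was run. Sums per library, or per Car1 class and library, went into the two-sided quasi-likelihood test of edgeR 4.0.16 (R 4.3.3), with TMM factors and filterByExpr. In tests on sums per library all 8 libraries shared 1 spread, and in tests on Car1 classes the 4 plate2 libraries did. A gene passed where its Benjamini-Hochberg adjusted p was under 0.05. Car1 wells against other wells, and the difference of that effect between genotypes, had the library as a block, since each library gives both classes. Genotype tests within a class used a one-way layout of genotype by class without a library term. Standard errors come from the fitted fold and its F. Always named were the 3 members, Car1 and Kat8, with up to 4 passing members of each list by p, and further list members are named where a count is accounted for. Some list members are not reported here. Start-site windows are from RefSeq, and positions are from GENCODE vM21.

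Alternatives were RLE size factors, DESeq2 1.42.0, no filter on low counts, wells thinned to 1000 transcripts (seed 1), at least 2000 transcripts, own barcodes only, a replicate block, only the libraries of a set, Car1 thresholds of 1 and 10, and each library left out in turn. Further ones, chosen after seeing the data, dropped wells of 10 or more mature neutrophil transcripts or of 3 or more Car1 transcripts, took the barcode set of a library as a term, set the Car1 class among thinned transcripts, or dropped the library block. Other tools were Python 3.11.15, numpy 2.4.6, pandas 2.3.3, scipy 1.17.1 and matplotlib 3.10.9.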

Additional observations from a re-analysis of the deposited data

Results flagged for a closer look

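The genotype effect on Gfi1b went opposite ways in the plate sets, since both het libraries lay above both wild type libraries in plate2 and below them in HSC libraries. The difference of the effects, plate2 minus HSC, was 1.93 ± 0.72 on the log2 scale, with an edgeR adjusted p of 0.444, so it did not pass over all genes. Of the 45 Gfi1b transcripts of HSC libraries, 36 came from 10 Car1 wells. Transcripts of the members were also counted in barcodes that were not kept, 25 of Runx1, 18 of Gfi1b and 6 of Gfi1 over the 8 libraries, or 7.42%, 6.95% and 9.84% of all counted. These barcodes, with under 1000 transcripts each, entered no comparison.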

How the results depend on the processing

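Of 229 results of the members under alternatives other than leaving out a library, 219 kept their direction and side of the threshold, 2 passed it and 8 changed sign, the 8 all being values that never passed. In Car1 wells over other wells, Runx1 stayed between -1.55 and -1.21 and Gfi1b between 1.69 and 2.20 in every alternative that gave a value, with adjusted p of at most 0.00241 for Runx1 and 0.000652 for Gfi1b. Wells thinned to 1000 transcripts gave no such value, since the members then missed the filter on low counts. Gfi1b in het plate2 over het HSC libraries passed without the filter (1.29) and without wells of mature neutrophil transcripts (1.33). The signs that turned were Gfi1b over both sets with DESeq2 (-0.10) and with at least 2000 transcripts (-0.017), Gfi1 in the difference of genotype effects without mature neutrophil wells (-0.53), Gfi1b in other plate2 wells without the filter (0.040) and without mature neutrophil wells (0.024), Gfi1 between genotypes in plate2 (0.14) and in het plate2 over het HSC (0.15) without Car1 wells, and Runx1 in the het minus wild type difference of the Car1 effect at a threshold of 1 (0.13). Apart from these, the difference in the share of wells with Gfi1 turned sign among wells with at least 2000 transcripts (-0.355 points). For the sign changes the cause was not tested. Leaving out 1 library moved Gfi1b in HSC libraries between -3.43 and -0.33, Gfi1b over both sets between -0.19 and 0.49, Gfi1b in the difference of genotype effects between 1.13 and 4.23, Gfi1 there between -0.014 and 0.45, Gfi1b in het plate2 over het HSC between 0.42 and 3.53, Gfi1b in other wells between -0.29 and 0.24, Gfi1 there between -0.66 and 1.71, and Runx1 in the difference of the Car1 effect between -0.52 and 0.34. Counts of genes that passed over all genes moved more. They lay between 0 and 39 for het over wild type in HSC libraries (1 as reported), 0 and 75 in plate2 libraries (37), 1 and 64 over both sets (9), 0 and 37 for the difference of genotype effects (0), 218 and 1581 for plate2 over HSC in het (1489), 302 and 1181 in wild type (1192), 86 and 2059 for Car1 wells over other wells (1650), 0 and 27 for het over wild type in Car1 wells (5), 0 and 3.68 times the reported count in other wells (41), and 0 and 65 for the difference of the Car1 effect (20). The replicate numbers of HSC libraries share only a number, since the deviations of same-numbered libraries had a correlation of -0.09, and with these numbers as a replicate block Gfi1b in HSC libraries was -1.26, Runx1 0.27 and Gfi1 -0.46, and 2 genes passed. In plate2 libraries the labels give no numbers shared between genotypes. Gfi1 rests on 55 transcripts in all.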
